A study of Mus musculus with 4 samples.

Results

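The genes described here copy and mend DNA. They were found by the names of the subunits that license replication origins, unwind and copy DNA, and repair it: gene symbols beginning with Mcm and a digit, Orc with a digit from 1 to 6, Gins, Pola, Pold, Pole, Rfc with a digit from 1 to 5, Rpa with a digit from 1 to 3, Rad and a digit, Fanc, Xrcc, Msh with a digit from 2 to 6, Mlh or Brca, and the ligases Lig1, Lig3 and Lig4. On the array, 188 probe sets with a single gene symbol matched these names, and they covered 82 genes of the 18193 that the array names. Of the 82, 36 are replication genes, 40 are repair genes, and 6 match by name but belong to neither class here. Where several probe sets named a gene, the brightest on average over the 4 arrays stood for it. A filter on low signals left 78 of the 82 for testing, with all 36 replication genes, 37 repair genes and 5 of the other 6.

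Bone marrow of mice with leukemia driven by MN1 was compared with Gr1+/CD11b+ marrow cells of healthy mice. The labels call the groups MN1 leukemic and Gr1/Mac1, and each has 2 arrays, which the design text calls biological replicates without saying that each is a separate mouse. All 4 samples are C57BL/6J bone marrow. For the leukemia, marrow was taken 4 days after 150 mg/kg of fluorouracil and stimulated for 48 hours with interleukin-6, interleukin-3 and stem cell factor. MN1 was introduced by culture with virus-producing cells, and the cells were sorted for GFP and injected with fresh syngeneic marrow cells into recipients given 750 cGy. The host can therefore contribute cells without MN1 to the leukemic marrow, and no sort of the harvested leukemic marrow is described, nor are the ages of the mice. The labels repeat the transduction protocol on all 4 samples, and whether it applies to the healthy mice is not given either. The 4 arrays hold no immature normal marrow, so effects of leukemia and of maturity cannot be told apart. Precision is limited by there being 2 arrays in each group.

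Before a cell divides, the origin recognition complex marks the sites where copying starts, and the MCM2-7 ring is loaded there as an inactive helicase. GINS and CDC45 switch the ring on, polymerase alpha lays the primers, and polymerases epsilon and delta extend the leading and the lagging strand on a sliding clamp that replication factor C loads. RPA coats the exposed strands, and ligase I seals the nicks. Repair genes mend the breaks, crosslinks and mismatches that arise during copying or from outside. In bone marrow, progenitors divide many times, and neutrophils leave the cell cycle as they mature.

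Signals are MAS5 values, linear intensities, and every array has the same trimmed mean. Median signals were 80.9 to 85.3 in leukemic and 59.1 to 74.8 in mature arrays. The groups also differed in measures of the RNA and of the hybridization. For beta-actin, 3′ over 5′ probe set signals came to 3.28 and 3.09 in leukemic and 1.32 and 1.39 in mature arrays, and the hybridization controls read 11920 and 8950 against 4044 and 4167. Mature replicate 2 stood apart by its sex, with a Y-linked Eif2s3y signal of 4409 against 2.51 to 3.01 in the other arrays. Itgam, which encodes the CD11b antigen of the gate, read 584 and 306 in leukemic and 4288 and 4407 in mature arrays, a log2 fold change of -3.31 (SE 0.33, adjusted p = 7.0e-04). Of 12 tested neutrophil markers 6 fell and none rose, and their summed signal was 456354 and 262945 in leukemic against 464063 and 374718 in mature arrays, so markers of this lineage were far from 0 in leukemic marrow. Of 7 tested erythroid markers 6 rose, and the summed signals of the 8 measured were 25537 and 35786 against 7718 and 3922. The tested marker that did not pass, Alas2, read 1354 and 3152 in leukemic and 6164 and 2176 in mature arrays. Its log2 fold change was -0.82 (SE 0.56, adjusted p = 0.28), and it formed most of the summed mature signals. Among the 6, Rhag had a mature mean (27.0) under 47.6, the lowest mean signal kept. It was thus kept through its leukemic arrays. Klf1, an erythroid transcription factor gene, read 9157 and 11465 in leukemic and 54.3 and 101 in mature arrays, a log2 fold change of 6.82 (SE 0.32, adjusted p = 1.1e-04). Summed over their lists, plasma cell markers read 7762 and 6402 in leukemic against 18709 and 12624 in mature arrays. Megakaryocyte markers summed to 3205 and 2576 against 865 and 920.1. Most of this leukemic sum was Itga2b, at 2092 and 1794 against 207 and 233. The other megakaryocyte genes did not pass, and their log2 fold changes ran from -0.90 (Ppbp) to 0.98 (Gp9). Granulocyte progenitor markers summed to 64146 and 18987 in leukemic against 56484 and 31125 in mature arrays, so they were far from 0 in both groups. The other lists had no tested granulocyte progenitor gene of 5 and no B cell gene of 6 past the threshold, 1 of 3 T and NK cell genes lower, 3 of 4 plasma cell genes lower and 1 of 5 megakaryocyte genes higher. Among those called lower, the leukemic means of Cd3d (24.4), Jchain (38.8) and Igha (9.68) lay under 47.6. These genes were kept through their mature arrays. The marker counts are to be read against all tested genes, of which 27.5% passed as higher and 15.9% as lower. The part of all these differences between the groups in the results below was not tested. In such mixed samples, fewer cells of a type and less RNA per cell cannot be told apart.

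Most replication genes were higher in leukemic marrow, and fewer repair genes were. Of 36 tested replication genes 25 rose and none fell (limma, Benjamini-Hochberg adjusted p threshold 0.05), and of 37 tested repair genes 16 rose and none fell. Of all 12378 tested genes, 43.4% passed, 27.5% as higher and 15.9% as lower. Against 27.5% of all genes, 69.4% of the tested replication genes and 43.2% of the tested repair genes passed as higher. Log2 fold changes below are differences of log2(signal + 16), mature subtracted from leukemic, and the added 16 shrinks those of dim genes. Their median was 1.24 over the replication genes, 0.76 over the repair genes and 0.28 over all tested genes. Both leukemic arrays lay above both mature arrays in 34 of 36 replication genes and in 24 of 37 repair genes, against 45.9% of all tested genes. They lay below both in 1 gene of each class, Rfc2 and Xrcc4, against 28.3% of all tested genes. Statements below on overlap between the groups are to be read against these shares. The plot of medians by setting shows how these values depend on the processing.

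Scaling moved the counts and left the order of the medians. Scaling to the same median or to the hybridization controls multiplies each array by a single factor. That moves all genes nearly alike, so the order of the medians was almost fixed in advance. With every array at the same median signal, the median over all genes was -0.02 and 15 replication and 7 repair genes rose, while 1 repair gene, Xrcc4, fell. With arrays scaled to the hybridization controls by group, the median over all genes was -0.95. Then 4 replication and 3 repair genes were called higher and 9 of each class lower, and the class medians were -0.08 and -0.55. Relative to the median of all genes, replication genes lay 0.96 higher as reported, 0.94 higher at the same median and 0.87 higher with the controls, and repair genes lay 0.48, 0.46 and 0.40 higher. Under that last scaling, 9 replication and 6 repair genes that had passed as higher took a value below 0, and they are named with their groups below. Without leukemic replicate 1, 15 replication and 5 repair genes rose, and without leukemic replicate 2, 13 and 5. In all 4 fits that each left out 1 array, 13 replication genes passed as higher (Mcm2, Mcm3, Mcm6, Orc1, Orc2, Orc5, Pola1, Pola2, Pold2, Pole, Pole3, Rfc4 and Rpa2) and 4 repair genes did (Msh6, Rad50, Xrcc5 and Xrcc6).

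**Figure D1:**
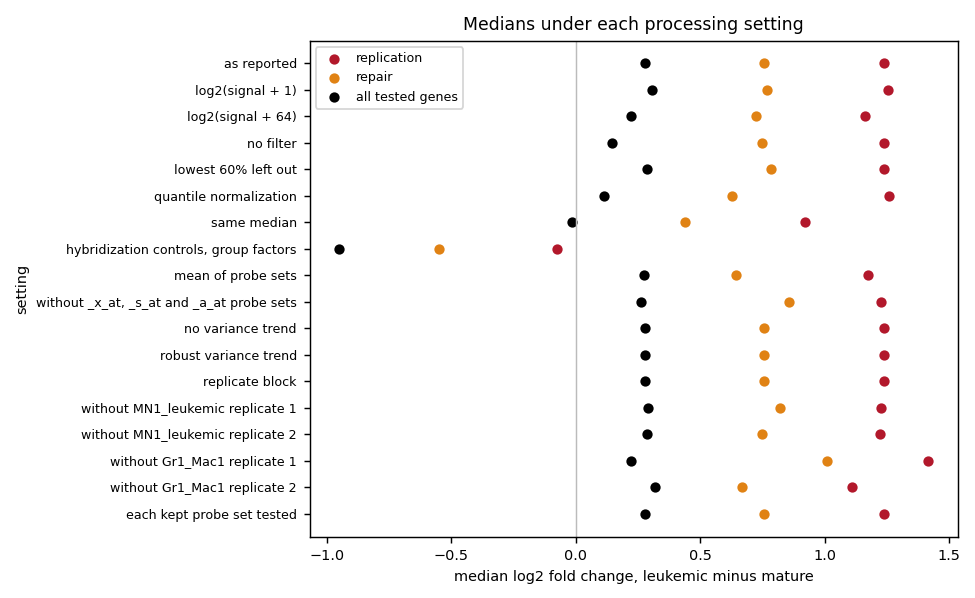
Median log2 fold change (x axis, leukemic minus mature) of the tested replication genes, the tested repair genes and all tested genes under each processing setting (y axis). Replication lies to the right of repair, and repair to the right of all genes, in every setting drawn. All 3 lie below 0 under scaling by the hybridization controls (-0.08, -0.55 and -0.95). The order was almost fixed in advance where arrays were scaled by a single factor or only the variance model or replicate block changed.

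The origin recognition complex, which marks replication origins, held the largest rise among the replication genes. Of its 6 subunit genes 4 rose (66.7%, against 27.5% of all tested genes). Orc2 read 1066 and 1220.1 in leukemic and 164 and 130.5 in mature arrays, a log2 fold change of 2.83 (SE 0.28, adjusted p = 7.2e-04). Orc1 read 378 and 508 in leukemic and 62.3 and 81.1 in mature arrays, a log2 fold change of 2.38 (SE 0.36, adjusted p = 0.0026). The groups were far apart in both of these probe sets, and Orc5 had a similar log2 fold change. When each kept probe set was tested, a dimmer one of Orc1 gave 1.28 (adjusted p = 0.29), and its arrays overlapped between groups. Of the dimmer ones of Orc2, 1 passed at 1.56 (adjusted p = 0.0065) and 1 did not, at 1.38 (adjusted p = 0.053). Orc5 read 1594 and 2988 in leukemic and 389 and 444 in mature arrays, a log2 fold change of 2.35 (SE 0.34, adjusted p = 0.0022). Orc6 read 1825 and 1609.8 in leukemic and 713 and 754 in mature arrays, a log2 fold change of 1.21 (SE 0.23, adjusted p = 0.0061). The remaining 2 subunit genes did not pass, although both leukemic arrays were above both mature arrays. Orc3 read 1439.9 and 1374 in leukemic and 1137 and 944 in mature arrays, a log2 fold change of 0.44 (SE 0.24, adjusted p = 0.18). Orc4 read 880.4 and 977 in leukemic and 501 and 654 in mature arrays, a log2 fold change of 0.68 (SE 0.26, adjusted p = 0.075). The members of 1 complex thus ranged from 0.44 to 2.83. Orc6 (1.12) no longer passed without leukemic replicate 1. Orc6 (1.30) no longer passed without leukemic replicate 2. Orc4 (0.87) passed without mature replicate 2. Orc6 (-0.10) was below 0 under scaling by the hybridization controls.

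Among the genes of the MCM2-7 ring, the core of the replicative helicase, 5 of 6 rose (83.3%, against 27.5% of all tested genes). Mcm2 read 5178 and 5408 in leukemic and 1604 and 1079 in mature arrays, a log2 fold change of 1.99 (SE 0.26, adjusted p = 0.0017). Mcm3 read 4373 and 4094 in leukemic and 1593 and 1213 in mature arrays, a log2 fold change of 1.59 (SE 0.24, adjusted p = 0.0026). Mcm4 read 6985 and 8344 in leukemic and 1683 and 4036 in mature arrays, a log2 fold change of 1.54 (SE 0.41, adjusted p = 0.021). On the log2 scale, the mature arrays of Mcm4 differed more from each other than those of the other ring genes. Mcm6 read 7967 and 8035 in leukemic and 3694 and 2651 in mature arrays, a log2 fold change of 1.35 (SE 0.25, adjusted p = 0.0054). Mcm7 read 19126 and 17828 in leukemic and 10518 and 6402 in mature arrays, a log2 fold change of 1.17 (SE 0.30, adjusted p = 0.019). In each of these 5 genes both leukemic arrays lay above both mature arrays, against 45.9% of all tested genes. Mcm5 read 8918 and 7342 in leukemic and 6335 and 4600.4 in mature arrays, a log2 fold change of 0.58 (SE 0.26, adjusted p = 0.12), which did not pass. Its leukemic arrays still lay above its mature arrays. All 17 kept probe sets that name a ring gene had a positive log2 fold change, from 0.58 for a probe set of Mcm5 to 2.14 for a second probe set of Mcm6. Mcm4 (1.67) and Mcm7 (1.12) no longer passed without leukemic replicate 1. Mcm4 (1.42) and Mcm7 (1.22) no longer passed without leukemic replicate 2. Mcm5 (0.81) passed without mature replicate 1. Mcm7 (-0.16) was below 0 under scaling by the hybridization controls.

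**Figure D2:**
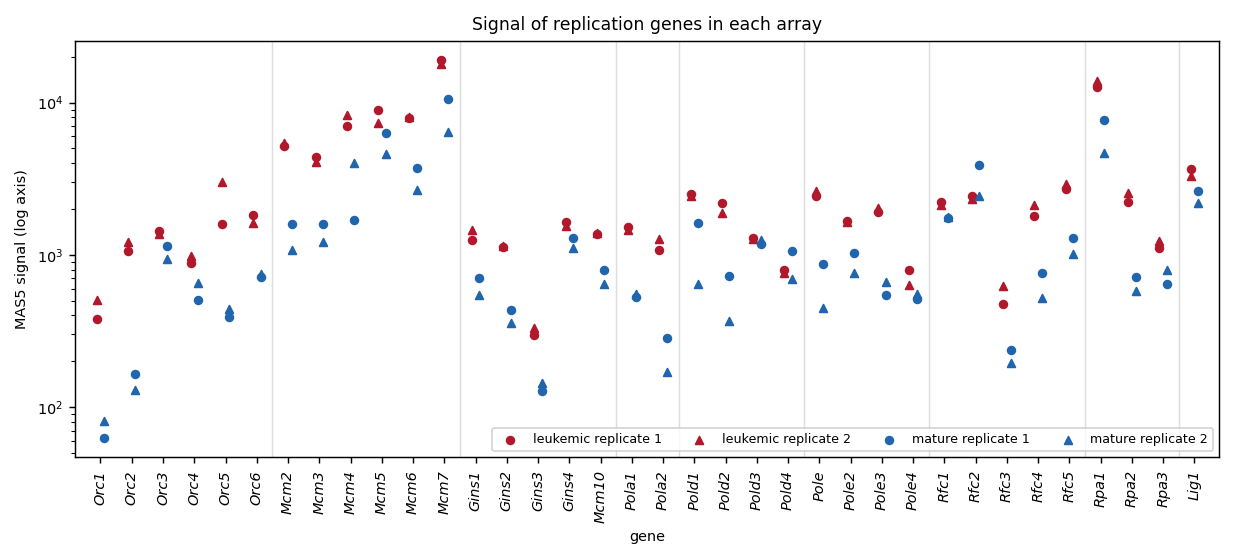
MAS5 signal (y axis, log scale) of each replication gene (x axis) in the 2 leukemic (red) and 2 mature (blue) arrays, with vertical lines between complexes. The leukemic points lie above the mature points in 34 of the 36 genes; in Rfc2 they lie below, and in Pold4 the groups overlap.

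Of 5 further genes that help to activate the ring, GINS subunits and Mcm10, 4 rose (80%, against 27.5% of all tested genes). GINS is the tetramer that joins the ring at the fork, and MCM10 helps to start unwinding. Gins2 read 1132 and 1144 in leukemic and 437 and 358 in mature arrays, a log2 fold change of 1.49 (SE 0.25, adjusted p = 0.0039). Gins1 read 1249.6 and 1448 in leukemic and 708 and 546 in mature arrays, a log2 fold change of 1.09 (SE 0.26, adjusted p = 0.014). Gins3 read 298 and 329.6 in leukemic and 128 and 144 in mature arrays, a log2 fold change of 1.12 (SE 0.32, adjusted p = 0.030). These 3 GINS genes were higher in both leukemic arrays. Mcm10 read 1373 and 1392 in leukemic and 797 and 639 in mature arrays, a log2 fold change of 0.94 (SE 0.24, adjusted p = 0.020). Gins4 read 1631 and 1540.1 in leukemic and 1287 and 1108 in mature arrays, a log2 fold change of 0.40 (SE 0.23, adjusted p = 0.20), which did not pass. Cdc45, the partner of GINS, lies outside the names searched and was added after its values were seen. Cdc45 read 859 and 809 in leukemic and 1459 and 1109 in mature arrays, a log2 fold change of -0.60 (SE 0.25, adjusted p = 0.096). It did not pass, and its leukemic arrays lay below its mature arrays, opposite to the GINS genes; the mean of its probe sets gave -0.12. Gins1 (1.20), Gins3 (1.19) and Mcm10 (0.95) no longer passed without leukemic replicate 1. Gins1 (0.99), Gins2 (1.48), Gins3 (1.05) and Mcm10 (0.93) no longer passed without leukemic replicate 2. Cdc45 (-0.80) passed as lower without mature replicate 2. Gins1 (-0.21), Gins3 (-0.12) and Mcm10 (-0.37) were below 0 under scaling by the hybridization controls.

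Both tested subunits of polymerase alpha, which makes the primers with primase, rose, against 27.5% of all tested genes. Pola2 read 1081 and 1263 in leukemic and 283 and 171 in mature arrays, a log2 fold change of 2.33 (SE 0.32, adjusted p = 0.0019). Pola1 read 1535 and 1465 in leukemic and 530.4 and 552 in mature arrays, a log2 fold change of 1.44 (SE 0.23, adjusted p = 0.0032). Pola1 encodes the catalytic subunit and lies on the X chromosome, and mature replicate 2 is of the other sex. Its 2 mature signals differed little from each other, and the part of sex in its values was not tested. The dimmer 2 probe sets of Pola2 gave -0.10 (adjusted p = 0.91) and 0.62 (adjusted p = 0.37) when each probe set was tested.

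Polymerase delta, the main lagging-strand enzyme, had 2 of 4 subunit genes higher (50%, against 27.5% of all tested genes). Pold2 read 2197 and 1869.7 in leukemic and 730.3 and 368 in mature arrays, a log2 fold change of 1.93 (SE 0.35, adjusted p = 0.0049). Pold1 read 2498 and 2452 in leukemic and 1623 and 639 in mature arrays, a log2 fold change of 1.27 (SE 0.42, adjusted p = 0.046), for the catalytic subunit. Mature replicate 2 was well below mature replicate 1 in both genes. Pold3 read 1283 and 1261 in leukemic and 1180.2 and 1253 in mature arrays, a log2 fold change of 0.064 (SE 0.22, adjusted p = 0.84). Pold4 read 799 and 755 in leukemic and 1062 and 692 in mature arrays, a log2 fold change of -0.14 (SE 0.29, adjusted p = 0.73). Neither passed at its brightest probe set, and the arrays of Pold4 overlapped between groups. A dimmer probe set of Pold3 read 1482 and 1575 against 817 and 975, and it passed at 0.76 (adjusted p = 0.045) in the fit to every kept probe set. Pold1 (1.25) no longer passed without leukemic replicate 1. Pold1 (1.28) no longer passed without leukemic replicate 2. Pold1 (0.60) no longer passed without mature replicate 2. Pold1 (-0.051) was below 0 under scaling by the hybridization controls.

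Polymerase epsilon, the leading-strand enzyme, had 3 of 4 subunit genes higher (75%, against 27.5% of all tested genes). Pole read 2447 and 2615 in leukemic and 865 and 448 in mature arrays, a log2 fold change of 1.99 (SE 0.34, adjusted p = 0.0037), for the catalytic subunit. Pole3 read 1923 and 2038 in leukemic and 547 and 660.4 in mature arrays, a log2 fold change of 1.69 (SE 0.24, adjusted p = 0.0021). Pole2 read 1666 and 1636 in leukemic and 1032 and 759 in mature arrays, a log2 fold change of 0.89 (SE 0.25, adjusted p = 0.028). In these 3 genes both leukemic arrays lay above both mature arrays, against 45.9% of all tested genes. Pole4 read 792 and 632 in leukemic and 514 and 550.2 in mature arrays, a log2 fold change of 0.40 (SE 0.26, adjusted p = 0.26), which did not pass. Pole3 and Pole4 encode the small histone-fold subunits, which pair with each other. Pole2 (0.87) no longer passed without leukemic replicate 1. Pole2 (0.90) no longer passed without leukemic replicate 2. Pole2 (0.67) no longer passed without mature replicate 2. Pole2 (-0.43) was below 0 under scaling by the hybridization controls.

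Replication factor C loads the PCNA clamp, and 3 of its 5 subunit genes rose (60%, against 27.5% of all tested genes). Rfc4 read 1794 and 2119 in leukemic and 762 and 519.7 in mature arrays, a log2 fold change of 1.61 (SE 0.28, adjusted p = 0.0040). Rfc5 read 2705 and 2931 in leukemic and 1296 and 1013 in mature arrays, a log2 fold change of 1.29 (SE 0.24, adjusted p = 0.0054). Rfc3 read 475 and 622 in leukemic and 237 and 194 in mature arrays, a log2 fold change of 1.28 (SE 0.31, adjusted p = 0.014). Those 3 encode small subunits of the loader. Rfc1 read 2234 and 2122 in leukemic and 1741 and 1762 in mature arrays, a log2 fold change of 0.31 (SE 0.22, adjusted p = 0.29), for the large subunit. Rfc2 read 2422 and 2332 in leukemic and 3881 and 2431 in mature arrays, a log2 fold change of -0.37 (SE 0.28, adjusted p = 0.33). Rfc2 was the 1 replication gene with both leukemic arrays below both mature arrays, and the probe sets that name it disagreed. Its others gave 1.08 (adjusted p = 0.032) and 0.52 (adjusted p = 0.15) when each probe set was tested, and the mean of its probe sets gave 0.41. Rfc3 (1.47) no longer passed without leukemic replicate 1. Rfc3 (1.09) and Rfc5 (1.23) no longer passed without leukemic replicate 2. Rfc2 (-0.70) passed as lower without mature replicate 2. Rfc5 (-0.033) was below 0 under scaling by the hybridization controls.

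Of the 3 genes of RPA, the complex that coats single-stranded DNA, 2 rose (66.7%, against 27.5% of all tested genes). Rpa2 read 2234 and 2559.9 in leukemic and 717 and 576 in mature arrays, a log2 fold change of 1.87 (SE 0.24, adjusted p = 0.0016). Rpa1 read 12707 and 13789.9 in leukemic and 7662 and 4666 in mature arrays, a log2 fold change of 1.14 (SE 0.30, adjusted p = 0.019). Rpa3 read 1102 and 1229.9 in leukemic and 648 and 797 in mature arrays, a log2 fold change of 0.68 (SE 0.25, adjusted p = 0.062). The smallest subunit, encoded by Rpa3, did not pass. Lig1 read 3659.6 and 3275 in leukemic and 2618 and 2176 in mature arrays, a log2 fold change of 0.53 (SE 0.23, adjusted p = 0.10), which did not pass either; Lig1 encodes the ligase that joins the fragments of the lagging strand. Rpa1 (1.20) no longer passed without leukemic replicate 1. Rpa1 (1.09) no longer passed without leukemic replicate 2. Rpa3 (0.83) passed without mature replicate 2. Rpa1 (-0.18) was below 0 under scaling by the hybridization controls.

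**Figure D3:**
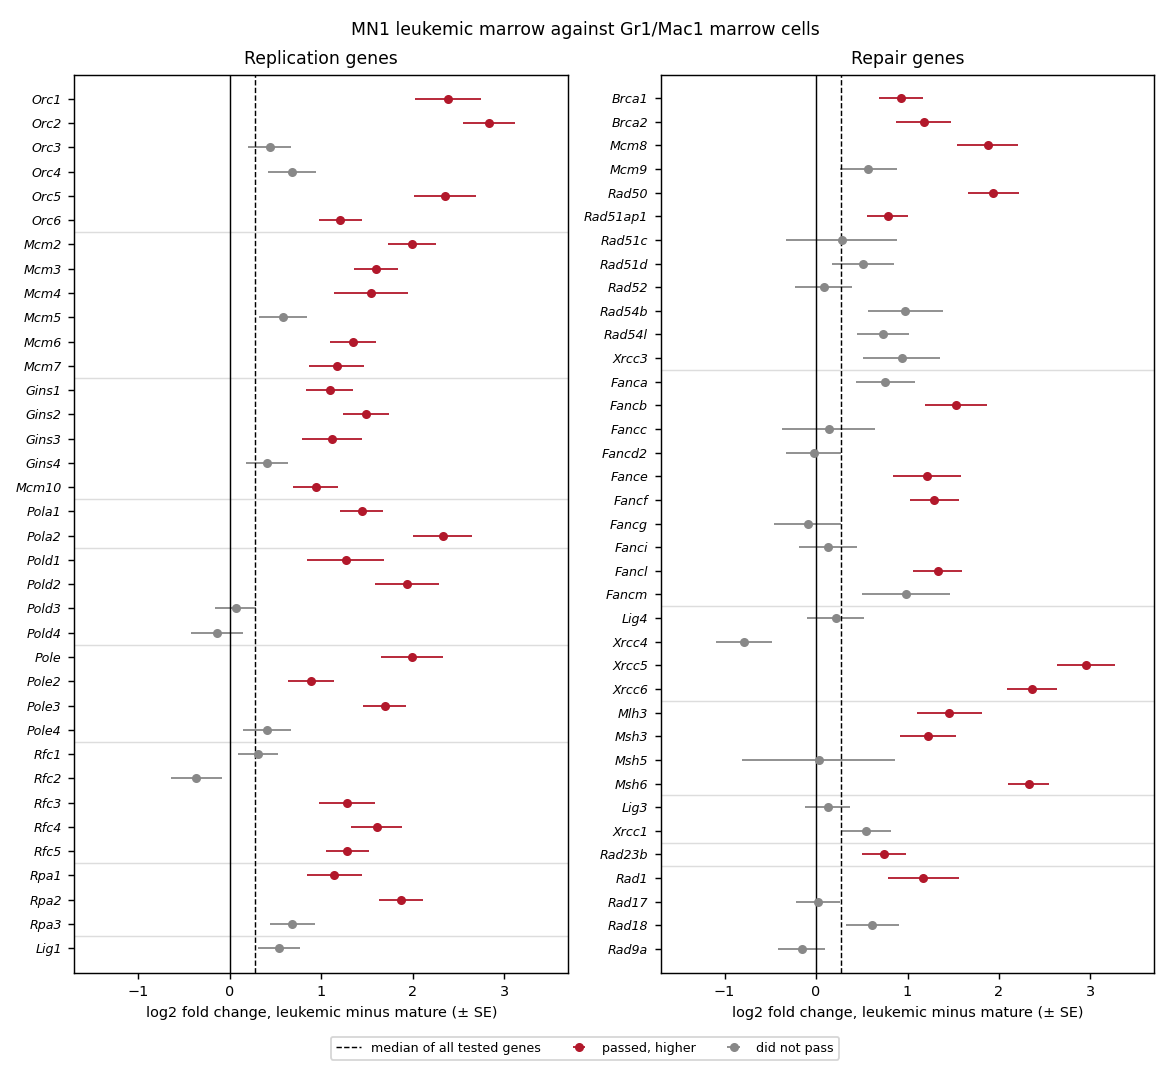
Log2 fold change (x axis, leukemic minus mature, bars are the SE) of each tested replication gene (left) and repair gene (right), grouped by complex or pathway. Red points passed the threshold as higher, grey points did not pass, and the dashed line is the median of all tested genes (0.28); Orc2 (2.83) and Xrcc5 (2.95) lie farthest to the right, and Xrcc4 (-0.79) farthest to the left.

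Promoter sequences show a further feature that the choice of genes by name did not use. E2F factors bind promoters of S phase genes, and 4 spellings of their site were searched on both strands: TTTCCCGC, TTTCGCGC, TTTGCCGC and TTTGGCGC. The windows were the RefSeq promoters of GRCm38.p6, from 250 bases before to 50 bases after each start site, and they were matched by gene ID for 68 of the 82 genes. Of 38 replication promoters 39.5% held at least 1 match, and of 42 repair promoters 21.4%, against 2.26% of all 32851 promoters and 3.87% of the 12827 promoters of tested genes. Promoters of 1 gene can overlap and then share a match; counted by gene, 14 of 30 replication and 8 of 35 repair genes had one. Within the replication class the share was 37.5% for genes that rose and 42.9% for genes that did not pass. For repair genes it was 29.4% and 19%. These shares are descriptions with no test, and a match is not a binding site that the data measured.

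The promoters below are shown because they hold matches in genes that rose in several complexes, and in Mcm5, which did not pass; the matches are in capitals, and both strands count, so a capital run can be the reverse complement of a spelling. They are the promoters of the ring genes Mcm6 (chr1:128359656-128359955, minus strand), Mcm7 (chr5:138171834-138172133, minus strand) and Mcm5 (chr8:75109259-75109558, plus strand), of the clamp loader gene Rfc3 (chr5:151651159-151651458, minus strand) and of the mismatch repair gene Msh6 (chr17:87974800-87975099, plus strand), read 5′ to 3′ along the gene.
Mcm6: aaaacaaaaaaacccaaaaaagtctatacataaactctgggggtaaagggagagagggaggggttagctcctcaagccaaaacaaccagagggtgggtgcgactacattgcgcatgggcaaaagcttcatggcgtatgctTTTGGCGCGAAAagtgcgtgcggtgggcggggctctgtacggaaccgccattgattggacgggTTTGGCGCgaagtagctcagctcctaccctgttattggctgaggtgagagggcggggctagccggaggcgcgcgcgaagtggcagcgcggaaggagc
Mcm7: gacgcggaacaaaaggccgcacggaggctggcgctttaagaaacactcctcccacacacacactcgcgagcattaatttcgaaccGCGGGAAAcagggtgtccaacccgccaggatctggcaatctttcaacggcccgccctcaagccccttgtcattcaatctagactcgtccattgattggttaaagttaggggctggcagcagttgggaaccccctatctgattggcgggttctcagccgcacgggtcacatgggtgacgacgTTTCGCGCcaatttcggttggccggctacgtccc
Mcm5: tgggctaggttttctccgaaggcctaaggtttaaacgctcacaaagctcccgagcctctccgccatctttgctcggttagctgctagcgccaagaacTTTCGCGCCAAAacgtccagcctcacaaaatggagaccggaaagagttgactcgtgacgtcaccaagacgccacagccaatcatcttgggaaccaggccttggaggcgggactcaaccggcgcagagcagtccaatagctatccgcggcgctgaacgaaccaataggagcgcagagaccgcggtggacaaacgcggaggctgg
Rfc3: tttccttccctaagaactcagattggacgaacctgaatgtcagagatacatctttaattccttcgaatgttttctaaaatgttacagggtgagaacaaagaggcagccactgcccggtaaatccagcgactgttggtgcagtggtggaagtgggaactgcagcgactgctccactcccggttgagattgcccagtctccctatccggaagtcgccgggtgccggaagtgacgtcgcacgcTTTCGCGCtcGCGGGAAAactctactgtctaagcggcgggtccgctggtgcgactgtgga
Msh6: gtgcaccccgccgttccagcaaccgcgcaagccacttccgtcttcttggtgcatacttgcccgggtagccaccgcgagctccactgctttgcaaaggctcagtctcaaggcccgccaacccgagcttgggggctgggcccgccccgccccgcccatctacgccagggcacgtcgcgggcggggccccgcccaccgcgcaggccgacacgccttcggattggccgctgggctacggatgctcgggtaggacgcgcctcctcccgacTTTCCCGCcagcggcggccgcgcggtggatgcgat
The Mcm6 window holds 3 matches, at -110 to -47 bases from the start site by their first base, and those of Mcm7, Mcm5 and Rfc3 hold 2 each. In Mcm5 the 2 matches overlap, as do 2 of those in Mcm6. Msh6 has 1 match, 15 bases after the start. Orc2 and Xrcc5, the replication and the repair gene with the largest rise, held no match in their windows.

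Letters of other cell cycle factors were searched on both strands as well. The letters CCAAT, read by the factor NF-Y, were in 55.3% of replication and 57.1% of repair promoters against 37.4% of all promoters. The letters TTTGAA, a spelling of the CHR element of late cell cycle promoters, were in 7.89% of replication and 4.76% of repair promoters, against 17.9% of all promoters, 12.2% of those of tested genes and 8 of the 11 promoters of a list of mitotic and proliferation markers. Among replication genes that rose, 12.5% of promoters held TTTGAA, near the share of tested genes. Matches of different motifs can share letters, and the shares carry no test.

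**Figure D4:**
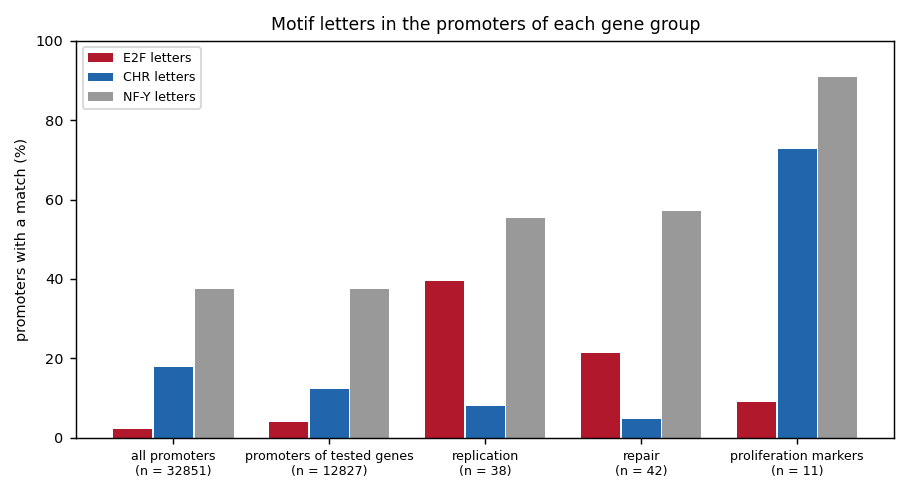
Share of promoters (y axis, percent) that hold at least 1 match to the E2F, CHR or NF-Y letters in 5 sets of promoters (x axis, number of promoters in brackets). E2F letters stand at 39.5% in replication and 21.4% in repair promoters against 2.26% of all, while CHR letters are most frequent in the proliferation markers (72.7%).

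Few markers of mitosis and proliferation passed. Of 14 tested markers 1 rose, Bub1b, a spindle checkpoint kinase gene, which read 4729 and 3994 in leukemic and 2755 and 1745 in mature arrays, a log2 fold change of 0.98 (SE 0.28, adjusted p = 0.029). The share that rose was 7.14%, against 27.5% of all tested genes. Both leukemic arrays lay above both mature arrays in 7 of the 14, against 45.9% of all tested genes. The median of the 14 was 0.23, close to the 0.28 of all tested genes. Mki67 read 15597 and 13553 in leukemic and 13746 and 11422 in mature arrays, a log2 fold change of 0.21 (SE 0.25, adjusted p = 0.52); this gene encodes the Ki-67 antigen of cycling cells and was chosen after its values were seen. The arrays of Mki67 overlapped between groups. The difference between the class of replication genes and these markers was not tested. Bub1b (0.86) no longer passed without leukemic replicate 1. Bub1b (1.10) no longer passed without leukemic replicate 2. Bub1b (0.65) no longer passed without mature replicate 2. Bub1b (-0.34) was below 0 under scaling by the hybridization controls.

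**Figure D5:**
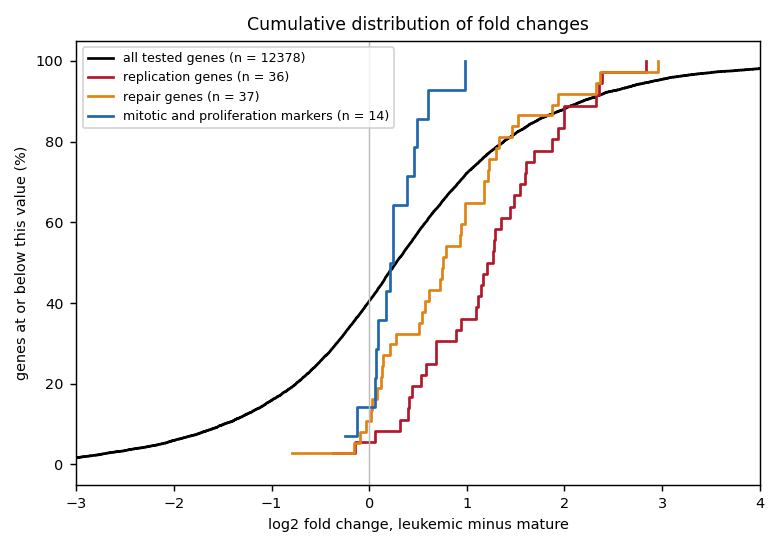
Cumulative share of genes (y axis, percent) at or below each log2 fold change (x axis) for all tested genes, replication genes, repair genes and mitotic and proliferation markers, with the number of genes in brackets. The replication curve reaches its middle at 1.24 and the repair curve at 0.76, and the marker curve reaches it near that of all genes (0.23 and 0.28).

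Other replication genes, from a list of 27 tested origin, fork and chromatin assembly genes outside the names searched, rose in 14 cases (51.9%, against 27.5% of all tested genes) and fell in 1 (3.7%, against 15.9%), with a median of 0.85. Rnaseh2a, a subunit gene of the enzyme that removes RNA from DNA, read 2049 and 1857 in leukemic and 484 and 145 in mature arrays, a log2 fold change of 2.80 (SE 0.50, adjusted p = 0.0048). Chaf1b, of the chromatin assembly factor that works behind the fork, read 1625 and 1905 in leukemic and 465 and 363 in mature arrays, a log2 fold change of 2.05 (SE 0.26, adjusted p = 0.0015). Cdc6, which loads the MCM ring with ORC, read 2158 and 2882 in leukemic and 698 and 744 in mature arrays, a log2 fold change of 1.77 (SE 0.25, adjusted p = 0.0021). Mcmbp, which encodes a protein that binds MCM subunits, was the 1 listed gene that fell. It read 1380.0 and 1067 in leukemic and 2846 and 2176 in mature arrays, a log2 fold change of -1.03 (SE 0.26, adjusted p = 0.018). Pcna, the clamp itself, read 21415 and 21492 in leukemic and 12954 and 10883 in mature arrays, a log2 fold change of 0.85 (SE 0.24, adjusted p = 0.028); it was chosen after its values were seen. Pcna (0.86) and Mcmbp (-1.21) no longer passed without leukemic replicate 1. Pcna (0.85) and Mcmbp (-0.84) no longer passed without leukemic replicate 2. Pcna (-0.48) was below 0 under scaling by the hybridization controls.

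Repair genes followed their pathways unevenly, and the largest rise of any member was in end joining. Xrcc5 and Xrcc6 encode the Ku heterodimer, which grips broken DNA ends. Xrcc5 read 698 and 735 in leukemic and 89.02 and 69.1 in mature arrays, a log2 fold change of 2.95 (SE 0.32, adjusted p = 8.6e-04). Xrcc6 read 2222 and 2676 in leukemic and 550.1 and 388 in mature arrays, a log2 fold change of 2.36 (SE 0.27, adjusted p = 0.0011). Both Ku genes were high in leukemic and low in mature arrays. The 2 genes of the ligation step did not pass. Xrcc4 read 274 and 271 in leukemic and 402 and 579.5 in mature arrays, a log2 fold change of -0.79 (SE 0.31, adjusted p = 0.077), the lowest value of any member, with both leukemic arrays below both mature arrays. Lig4 read 303 and 288 in leukemic and 218 and 292 in mature arrays, a log2 fold change of 0.21 (SE 0.32, adjusted p = 0.62). Xrcc4 passed as lower under 4 of the alternatives: quantile normalization (-1.10), the same median (-1.10), the hybridization controls (-2.06) and without mature replicate 1 (-1.04). The 2 Ku genes passed under all of these.

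Mismatch repair had 3 of 4 tested genes higher (75%, against 27.5% of all tested genes). Msh6 read 4278 and 3811 in leukemic and 779 and 809 in mature arrays, a log2 fold change of 2.32 (SE 0.22, adjusted p = 6.4e-04); its product recognises small mismatches. Mlh3 read 362 and 377 in leukemic and 96.6 and 159 in mature arrays, a log2 fold change of 1.46 (SE 0.36, adjusted p = 0.016). Msh3 read 499.8 and 728 in leukemic and 251 and 246 in mature arrays, a log2 fold change of 1.23 (SE 0.31, adjusted p = 0.017); its product recognises larger loops. In these 3 genes both leukemic arrays lay above both mature arrays, against 45.9% of all tested genes. Msh5 read 35.7 and 102 in leukemic and 18.97 and 152 in mature arrays, a log2 fold change of 0.028 (SE 0.84, adjusted p = 0.98). Msh5 acts in meiosis, and its replicates differed widely. Msh4, its partner, was below the filter, at 3.75 and 2.50 in leukemic and 2.33 and 33.5 in mature arrays. Mlh3 (1.49) and Msh3 (1.49) no longer passed without leukemic replicate 1. Mlh3 (1.43) and Msh3 (0.96) no longer passed without leukemic replicate 2. Msh3 (-0.049) was below 0 under scaling by the hybridization controls.

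Homologous recombination, which repairs breaks from a sister copy, had 5 of 12 tested genes higher (41.7%, against 27.5% of all tested genes). Rad50 read 2311 and 1679 in leukemic and 573 and 440.0 in mature arrays, a log2 fold change of 1.94 (SE 0.28, adjusted p = 0.0022); its product tethers broken ends. Mcm8 read 443 and 392 in leukemic and 116 and 89.3 in mature arrays, a log2 fold change of 1.88 (SE 0.33, adjusted p = 0.0046); it is a helicase related to the ring and works in repair. Brca2 read 932 and 1071 in leukemic and 543 and 345 in mature arrays, a log2 fold change of 1.17 (SE 0.30, adjusted p = 0.019). BRCA2 loads the recombinase, and BRCA1 acts before it at the break. Brca1 read 1315 and 1466 in leukemic and 763 and 682 in mature arrays, a log2 fold change of 0.93 (SE 0.24, adjusted p = 0.018). Rad51ap1 read 2479.9 and 2612 in leukemic and 1564 and 1385 in mature arrays, a log2 fold change of 0.78 (SE 0.22, adjusted p = 0.027). In these 5 both leukemic arrays lay above both mature arrays, against 45.9% of all tested genes. The other 7 did not pass. Among them Rad54b was at 0.98 (adjusted p = 0.095), Xrcc3 at 0.94 (adjusted p = 0.11) and Rad54l at 0.73 (adjusted p = 0.078), with both leukemic arrays above both mature arrays in each. Mcm9, the partner of Mcm8, was at 0.57 (adjusted p = 0.19). Rad51d was at 0.51 (adjusted p = 0.26), Rad51c at 0.28 (adjusted p = 0.74) and Rad52 at 0.085 (adjusted p = 0.85), and the arrays of these 3 overlapped. When each probe set was tested, a dimmer one of Rad51d passed at 1.22 (adjusted p = 0.022) and a dimmer one of Rad54l at 1.25 (adjusted p = 0.013). Rad51b was below the filter, at 59.02 and 78.8 in leukemic and 26.01 and 2.26 in mature arrays. Brca1 (1.01), Brca2 (1.27), Mcm8 (1.79) and Rad51ap1 (0.82) no longer passed without leukemic replicate 1. Brca1 (0.85), Brca2 (1.08) and Rad51ap1 (0.75) no longer passed without leukemic replicate 2. Rad54b (1.41), Rad54l (1.03) and Xrcc3 (1.36) passed without mature replicate 1. Brca1 (-0.38), Brca2 (-0.12) and Rad51ap1 (-0.54) were below 0 under scaling by the hybridization controls.

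Fanconi anemia genes, whose products unhook crosslinks between the strands, rose in 4 of 10 cases (40%, against 27.5% of all tested genes). Fancb read 437 and 602 in leukemic and 138 and 203 in mature arrays, a log2 fold change of 1.53 (SE 0.34, adjusted p = 0.011). Fancl read 1177 and 1166 in leukemic and 535 and 389.5 in mature arrays, a log2 fold change of 1.33 (SE 0.27, adjusted p = 0.0073). FANCL is the ubiquitin ligase of the core complex, and FANCB is its partner; Fancb lies on the X chromosome, like Pola1. Fancf read 784 and 754 in leukemic and 331 and 279 in mature arrays, a log2 fold change of 1.29 (SE 0.27, adjusted p = 0.0080). Fance read 284 and 208 in leukemic and 95.1 and 96.8 in mature arrays, a log2 fold change of 1.21 (SE 0.37, adjusted p = 0.034). All 4 encode subunits of the core complex, as do Fanca, Fancc and Fancg, which did not pass. Fancd2 and Fanci, which encode the pair that the complex modifies, did not pass either. Fancd2 read 283 and 263 in leukemic and 275 and 281 in mature arrays, a log2 fold change of -0.028 (SE 0.30, adjusted p = 0.95). Fanci read 485 and 513 in leukemic and 575 and 357 in mature arrays, a log2 fold change of 0.13 (SE 0.32, adjusted p = 0.76). The arrays of both overlapped between groups. A second kept probe set of Fancd2 gave 1.14 (adjusted p = 0.067) when each probe set was tested. Fancm was at 0.98 (adjusted p = 0.14) and Fanca at 0.76 (adjusted p = 0.10). Fancc at 0.14 (adjusted p = 0.85) and Fancg at -0.090 (adjusted p = 0.86) overlapped between groups, and Fancg read 348 and 302 in leukemic and 253 and 472 in mature arrays. Fancc depended on the probe set: a dimmer one read 187 and 213 in leukemic and 25.3 and 54.4 in mature arrays and passed when each was tested (1.997, adjusted p = 0.014), and another gave 1.03 (adjusted p = 0.085). Fance (1.00), Fancf (1.27) and Fancl (1.32) no longer passed without leukemic replicate 1. Fancb (1.30), Fance (1.42), Fancf (1.32) and Fancl (1.34) no longer passed without leukemic replicate 2. Fance (1.20) no longer passed without mature replicate 1. Fanca (1.16) and Fancm (1.56) passed without mature replicate 1. Fance (1.22) no longer passed without mature replicate 2.

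Of the remaining 7 tested repair genes 2 rose, a share of 28.6% that is near the 27.5% of all tested genes. Rad23b, which helps to find damage for excision repair, read 2328 and 2944 in leukemic and 1465 and 1659.7 in mature arrays, a log2 fold change of 0.74 (SE 0.24, adjusted p = 0.042). Rad1, a subunit gene of the checkpoint clamp, read 188 and 239.6 in leukemic and 99.5 and 72.7 in mature arrays, a log2 fold change of 1.17 (SE 0.39, adjusted p = 0.046). Of its partners in that clamp, Hus1 passed as higher, at 0.94 (adjusted p = 0.031). Hus1 lies outside the names searched and was added after its values were seen. Rad9a, another partner, did not pass. Rad9a read 768 and 858 in leukemic and 1024 and 804 in mature arrays, a log2 fold change of -0.16 (SE 0.25, adjusted p = 0.65). Rad17, which loads the clamp, was at 0.020 (adjusted p = 0.96), and Rad18, a ligase of post-replication repair, at 0.61 (adjusted p = 0.13). Of the genes that seal nicks in 1 strand, Xrcc1 was at 0.54 (adjusted p = 0.15) and Lig3 at 0.13 (adjusted p = 0.71). Rad9b was below the filter, at 11.1 and 34.1 in leukemic and 40.4 and 51.2 in mature arrays. Rad23b (0.91) and Rad1 (1.34) no longer passed without leukemic replicate 1. Rad23b (0.57) and Rad1 (1.01) no longer passed without leukemic replicate 2. Rad23b (0.65) no longer passed without mature replicate 1. Xrcc1 (0.77) passed without mature replicate 1. Rad1 (0.98) no longer passed without mature replicate 2. Rad23b (-0.58) and Rad1 (-0.010) were below 0 under scaling by the hybridization controls.

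In a wider list of 54 tested repair genes outside the names searched, 21 rose and none fell, with a median of 0.84. Apex1, the main nuclease of base excision repair, read 8347 and 9877 in leukemic and 1212 and 581 in mature arrays, a log2 fold change of 3.41 (SE 0.36, adjusted p = 8.2e-04). Ung, which removes uracil from DNA, read 1988 and 1896 in leukemic and 168 and 173 in mature arrays, a log2 fold change of 3.39 (SE 0.25, adjusted p = 2.9e-04). Mgmt, which reverses alkyl damage, read 237 and 328 in leukemic and 25.1 and 18.1 in mature arrays, a log2 fold change of 2.98 (SE 0.44, adjusted p = 0.0024). The mature means of Mgmt (21.6) and of Nthl1 (15.4), also among the 21, lay under 47.6, the lowest mean signal kept, so these genes were kept through their leukemic arrays and their fold changes have no measured mature level above that floor. Of 16 tested damage checkpoint genes 11 rose and none fell, with a median of 1.29. Cdkn1a, the p21 inhibitor of cyclin-dependent kinases, read 2072 and 5579 in leukemic and 447 and 309 in mature arrays, a log2 fold change of 3.14 (SE 0.47, adjusted p = 0.0024). Atrip, the partner of the kinase ATR, read 178 and 209 in leukemic and 55.6 and 4.95 in mature arrays, a log2 fold change of 2.43 (SE 0.66, adjusted p = 0.022). Its mature mean (30.3) was under the same floor, so the same limit holds. Trp53bp1, a scaffold at DNA breaks, read 5249 and 6620.4 in leukemic and 1437 and 1605 in mature arrays, a log2 fold change of 1.95 (SE 0.24, adjusted p = 0.0013). Both lists are to be read against the 27.5% of all tested genes that rose. Atrip (2.54) no longer passed without leukemic replicate 1. Atrip (2.32) no longer passed without leukemic replicate 2.

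The 6 genes that matched by name only included 1 that rose (20% of those tested, against 27.5% of all tested genes). Poldip2, which encodes a protein that binds polymerase delta, read 2376 and 2397 in leukemic and 744 and 517 in mature arrays, a log2 fold change of 1.92 (SE 0.26, adjusted p = 0.0019). Poldip3 was at -0.38 (adjusted p = 0.25), Mcm3ap at 0.16 (adjusted p = 0.61) and Rad54l2 at 0.53 (adjusted p = 0.26). Rad21, a cohesin subunit gene, was at 0.44 (adjusted p = 0.38), and its mature arrays read 3699 and 8070, farther apart than its leukemic arrays. Fancd2os was below the filter, at 7.31 and 21.8 in leukemic and 1.09 and 13.8 in mature arrays. Rad21 (1.00) passed without mature replicate 2.

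The 2 mature arrays were shifted against each other more than the 2 leukemic arrays. Over the 78 tested members the median log2 difference of leukemic replicate 1 minus replicate 2 was -0.06, and that of mature replicate 1 minus replicate 2 was 0.26. Mature replicate 1 was the lower of the pair in 12 of 36 replication genes. Without it the median of the replication genes was 1.42, and without mature replicate 2 it was 1.11. The difference between the class medians, replication minus repair, was 0.48 as reported. Over the 4 pairs of 1 leukemic and 1 mature array it was 0.34 to 0.44, with an SD of 0.04. The value as reported lay above that range. The pairs share arrays, so their SD does not measure a spread between independent replicates. Of 50 members with several kept probe sets, none had probe sets called in opposite directions, and 10 had probe sets of both signs. The choice of the brightest probe set still mattered for single calls. In 5 members that did not pass (Fancc, Pold3, Rad51d, Rad54l and Rfc2) a dimmer probe set passed as higher. In 16 members that passed, a dimmer kept probe set did not. The 16 were Orc1, Orc2, Mcm3, Gins1, Gins3, Mcm10, Pola2, Pole3, Rpa2, Brca1, Rad51ap1, Fancb, Fance, Fancf, Msh3 and Rad23b. Among these dimmer probe sets, 1 of Msh3 (-0.17) and 1 of Pola2 (-0.10) were below 0. No tested member had a group mean under the floor of 47.6.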

How the data were processed

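RNA of 2 leukemic and 2 mature marrow samples was measured on Affymetrix arrays. The authors deposited linear MAS5 signal intensities; the submitters' processing notes name GCOS 1.3.0. Of 45101 probe sets 34945 had 1 gene symbol, 932 several and 9160 none, and only the first kind was used; 64 control probe sets were left out. Probe sets were ranked by mean signal and the dimmest 40% dropped, which left 12378 genes, each at its brightest probe set. Groups were compared on log2(signal + 16) in R 4.3.3 by limma 3.58.1 (lmFit and trended eBayes, both directions). Benjamini-Hochberg adjustment ran across the 12378 genes, and the code was tested on simulated data. Named were every member found, and up to 3 called genes with the largest change from each wider list and 1 in the other direction. The members and lists were chosen with earlier results of these data known. Motifs were searched with Python 3.11.15 in RefSeq promoters. Alternatives covered the pseudocount, filter, scaling, probe set choice, variance model, replicate block and leaving out each array.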

Additional observations from a re-analysis of the deposited data

How the results depend on the processing

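The class medians kept their order under every alternative, and the counts of calls did not. Their order was almost fixed in advance where arrays were scaled by a single factor. It could not change where only the variance model or the replicate block changed, as the fold changes stayed the same. Over all genes, 2575 to 5441 passed when 1 array was left out. Leaving out 1 array gave 13 to 26 replication genes changed (13 to 26 higher and 0 to 1 lower) and 5 to 21 repair genes changed (5 to 20 higher and 0 to 1 lower). At the same median signal 15 replication genes rose, and 8 repair genes changed, 7 higher and 1 lower. With the hybridization controls 13 replication genes changed, 4 higher and 9 lower, and 12 repair genes, 3 higher and 9 lower. Quantile normalization gave 1 repair gene lower. The difference of class medians was 0.44 with a pseudocount of 64, 0.63 after quantile normalization, 0.53 with the mean of probe sets, 0.37 without probe sets marked as able to match several transcripts, and 0.41 to 0.48 when 1 array was left out. The replicate number as a block gave 25 replication and 15 repair genes changed. The deviations of same-numbered arrays correlated at -0.03, a single value that cannot settle whether the numbers pair the samples. Testing every kept probe set, chosen after seeing the data, gave 24 and 15. The cause of these changes was not tested.

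These log2 fold changes changed sign. With the hybridization controls they were Orc3 -0.88, Orc4 -0.62, Orc6 -0.10, Mcm5 -0.75, Mcm7 -0.16, Gins1 -0.21, Gins3 -0.12, Gins4 -0.91, Mcm10 -0.37, Pold1 -0.051, Pold3 -1.25, Pole2 -0.43, Pole4 -0.90, Rfc1 -1.01, Rfc5 -0.033, Rpa1 -0.18, Rpa3 -0.62, Lig1 -0.79, Brca1 -0.38, Brca2 -0.12, Mcm9 -0.67, Rad51ap1 -0.54, Rad51c -0.83, Rad51d -0.78, Rad52 -1.16, Rad54b -0.24, Rad54l -0.58, Xrcc3 -0.29, Fanca -0.55, Fancc -1.02, Fanci -1.15, Fancm -0.20, Lig4 -1.04, Msh3 -0.049, Msh5 -0.97, Lig3 -1.18, Xrcc1 -0.75, Rad23b -0.58, Rad1 -0.010, Rad17 -1.30, Rad18 -0.65, Mcm3ap -1.16, Rad21 -0.89, Rad54l2 -0.71, Pcna -0.48, Bub1b -0.34 and Mki67 -1.12. Quantile normalization gave Pold3 -0.044, Rad51c -0.024, Rad52 -0.24, Fancc -0.17, Fanci -0.13, Lig4 -0.13, Msh5 -0.22 and Lig3 -0.058. The same median gave Pold3 -0.25, Rfc1 -0.0073, Rad52 -0.22, Fancc -0.14, Fanci -0.18, Lig4 -0.089, Msh5 -0.18, Lig3 -0.19, Rad17 -0.30, Mcm3ap -0.16 and Mki67 -0.11. The mean of probe sets gave Rfc2 0.41, Mcm9 -0.15, Rad51c -0.11, Fancd2 0.31 and Lig3 -0.15. A pseudocount of 64 gave Msh5 -0.057, and leaving out the marked probe sets gave Poldip3 0.022. With 1 array left out, the ranges were Pold4 -0.44 to 0.16, Rad51c -0.34 to 0.90, Rad52 -0.019 to 0.19, Fancc -0.40 to 0.68, Fancd2 -0.078 to 0.022, Fancg -0.52 to 0.34, Fanci -0.20 to 0.47, Msh5 -1.10 to 1.16, Rad17 -0.11 to 0.15, Rad9a -0.33 to 0.013 and Rad21 -0.12 to 1.00. Dim genes such as Msh5 and Rad51c are limited by signal over background. With 2 arrays against 2, an exact permutation test of a single gene cannot go below 0.33.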

Other observations

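Some probe sets that name several genes include a member and were left out of all counts. A probe set shared by Fsbp and Rad54b read 32.2 and 38.7 in leukemic and 4.31 and 29.4 in mature arrays. Another of the same pair read 419.7 and 422.8 against 350.4 and 383.9. A probe set shared by Orc4 and Acvr2a read 41.0 and 27.4 against 57.4 and 51.5, below both mature arrays, while the Orc4 probe set used above was higher in both leukemic arrays.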
